A study of Mus musculus with 5 samples.

Results

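The 3216 genomic sites described here had a listed p300 peak in both treatments but a listed c-Jun peak only in the cells that had no pioglitazone. They were chosen from 4 ChIP-seq peak lists of MS5, a mouse stromal cell line from bone marrow, used at passage 11. Overlapping peaks of the lists (at least 1 bp) were joined into 44718 sites, and a member had a peak from p300 with pioglitazone, p300 without it and c-Jun without it, and none from c-Jun with it. The libraries were p300 ChIP from cells given TGF-β1 (10 ng/mL, 5 h) plus pioglitazone (20 ng/mL), c-Jun ChIP from cells given the same pair of agents, p300 ChIP from cells given TGF-β1 alone, and c-Jun ChIP from cells given TGF-β1 alone. Every ChIP library thus came from TGF-β1-stimulated cells, and a pooled input is the fifth sample.

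p300 is a histone acetyltransferase and coactivator that is recruited to active enhancers and promoters by DNA-bound transcription factors. c-Jun pairs with Fos or other Jun family proteins to form AP-1, a factor that binds enhancers widely in fibroblast-like cells and acts downstream of growth factors, stress kinases and TGF-β. Pioglitazone, a drug of the thiazolidinedione class, is an agonist of PPARγ, and this nuclear receptor, once ligand-bound, is known to restrain AP-1 activity in several cell types. By its title the study concerns how myelofibrosis resolves, a disease in which stromal cells deposit excess matrix in the bone marrow.

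Each group was 1 library, so no difference between treatments has a replicate check and no p-value is given. The lists held 21994 p300 peaks with pioglitazone and 31466 without it, and 13325 c-Jun peaks with pioglitazone and 17044 without it. With pioglitazone the p300 list was thus 69.9% and the c-Jun list 78.2% as long as without it. The authors' score is 1 for every peak, so it carries no height, and the depth of the libraries is unknown. "Lost" and "kept" below say only whether a list holds a peak at the site: a peak that fell just under the caller's threshold and one that vanished cannot be told apart. Sites are named by mm9 position, because no mm9 gene annotation or sequence was used here. The position of a row in its list (percent of rows, 0 being the start) is used below as a stand-in for peak strength, although the basis of that row order is not given.

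Loss of c-Jun was less frequent where p300 was kept. Of the 17044 sites with c-Jun without pioglitazone, 9152 had no c-Jun peak with it, a background of 53.7%. Among the 8978 of them with p300 in both lists the lost ones, which are the members, made up 35.8% (exact 95% interval 34.8 to 36.8). At the 2980 sites whose p300 peak was listed only without pioglitazone, 63.4% (61.6 to 65.1) lost c-Jun. At the 5086 sites with no p300 peak without pioglitazone 79.6% (78.5 to 80.7) did. These include sites with p300 listed only with pioglitazone, of which 445 lost c-Jun and 264 kept it. At those with p300 in neither list, 3603 lost it and 774 kept it. Loss thus outnumbered keeping also where p300 was listed only with pioglitazone. The share at sites that kept p300 was 27.5 percentage points below that at sites that lost it (difference -27.5, 95% interval -29.5 to -25.5). Since the rule used these lists, the shares are a description. Intervals here and below cover counting error only.

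The members accounted for 14.6% of all p300 peaks with pioglitazone, 10.2% of p300 peaks without it and 18.9% of c-Jun peaks without it. Each of the 3216 members had exactly 1 peak of each of the 3 lists. The opposite exchange, p300 in both treatments and c-Jun only with pioglitazone, was found at 1237 sites, which is 17.7% of the sites with c-Jun with pioglitazone and p300 in both lists, where 40.8% of all c-Jun sites with pioglitazone lacked c-Jun without it. There were thus 2.60 members for each such site. With the lists of each antibody made equally long by row order the counts were 2407 and 1438, a ratio of 1.67.

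The c-Jun peaks of the members were spread over their list, with few in its first rows. Members had a median position of 51.5% in the c-Jun list without pioglitazone (quartiles 31.3 and 72.9), against 27.1% (11.7 and 49.5) at the 5762 sites present in all 4 lists. Its first 10% of rows held only 110 members, 3.42%, and 21.5% of the sites of all 4 lists. This was not particular to the members. The 1237 sites of both p300 lists with c-Jun only with pioglitazone had a median of 55.3% in the c-Jun list with pioglitazone. The first 10% of that list held 2.34% of them. In the p300 lists the members' median position was 42.1% with pioglitazone and 29.2% without it. At the sites of all 4 lists it was 24.4% and 16.2%. At the 6001 sites of both p300 lists that never had c-Jun it was 53.5% and 43.7%.

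**Figure D1:**
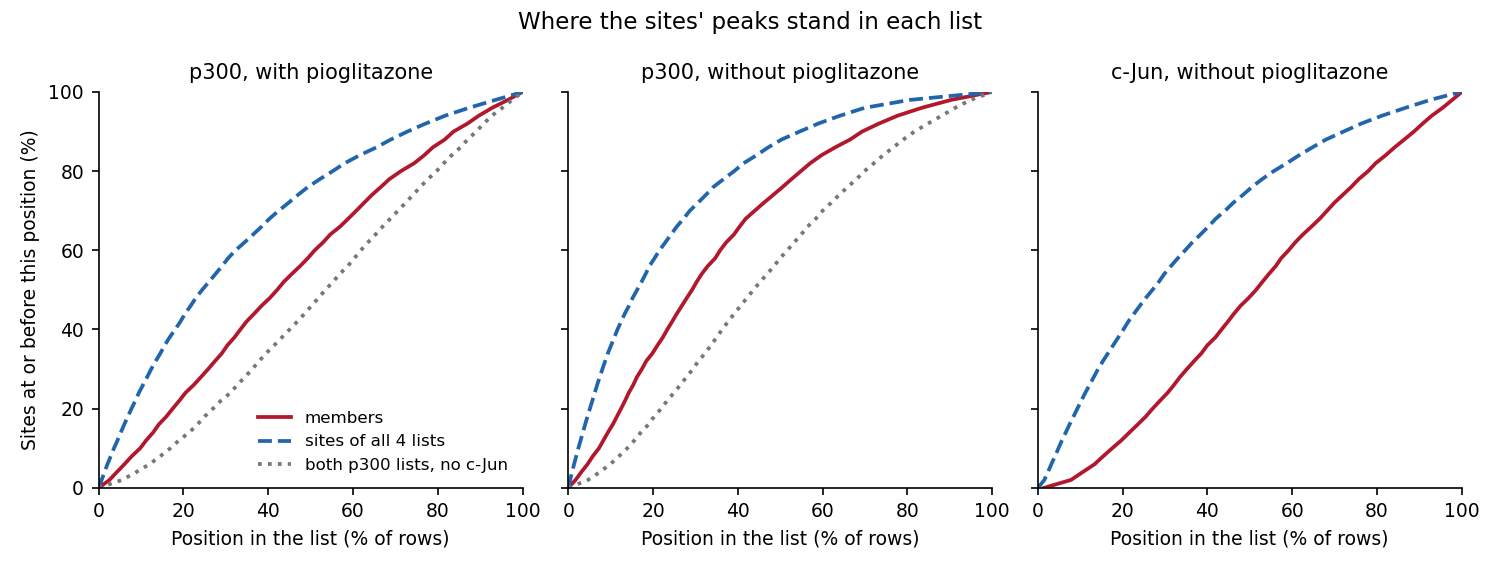
Cumulative share of sites (y axis, percent) by the position of their peak in each list (x axis, percent of rows). In both p300 lists the curve of the members lies between the sites of all 4 lists and the p300 sites without c-Jun. The members' medians there are 42.1% with and 29.2% without pioglitazone. In the c-Jun list the first 10% of rows holds 3.42% of the members, and beyond it their curve is closer to even.

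Loss followed the c-Jun order closely. Among sites with p300 in both lists, members were 8.17% (6.76 to 9.77) of the opening 10% of c-Jun rows and 63.5% (58.9 to 68.0) of the closing 10%. The share was higher in each following 10% step. Where p300 was listed without pioglitazone only, the lost share was 17.7% (11.2 to 26.0) in the first step and 80.2% (75.9 to 84.1) in the last. Comparing sites within the same 10% steps, the gap between kept and lost p300 was -17.4 points (-19.4 to -15.3), and -13.7 (-16.0 to -11.4) when sites were also matched in 20% steps of the p300 list without pioglitazone (a matching chosen after seeing the data). With all 4 lists shortened to their first 50% of rows it was -11.2 (-14.0 to -8.33), and 1684 sites met the rule. Of these, 1114 were among the 3216 members, 34.6% of them, and the others met the rule only in the shortened lists.

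**Figure D2:**
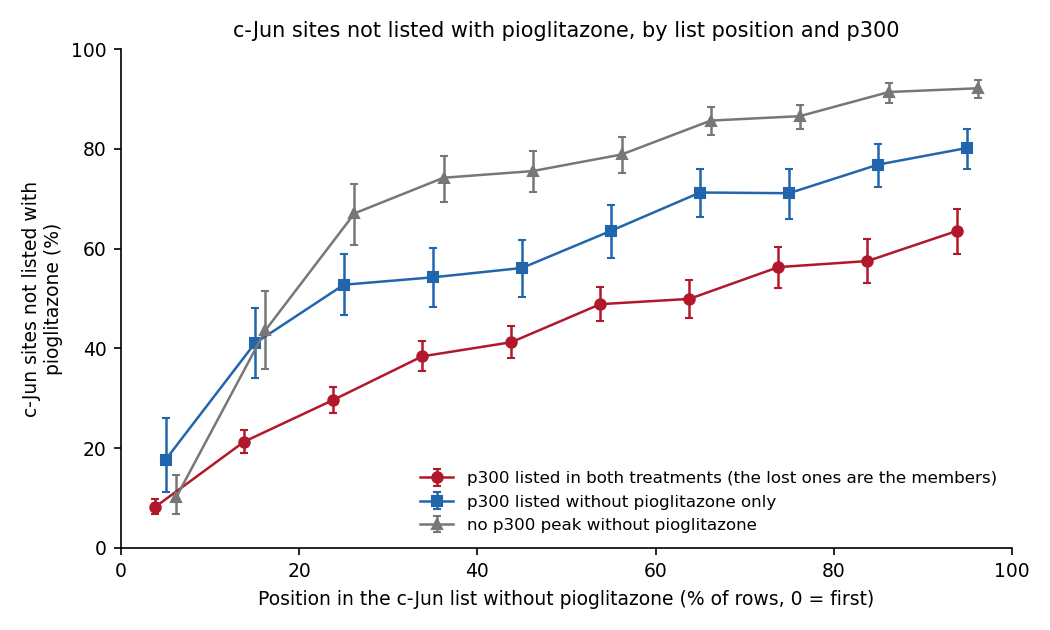
Share of c-Jun sites with no c-Jun peak with pioglitazone (y axis, percent) in 10% steps of the c-Jun list without pioglitazone (x axis), by p300 status; bars are exact 95% intervals. Sites with p300 in both lists lie lowest in every step, from 8.17% to 63.5%.

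Loss was also less frequent where the p300 peak stood early in its list. Of sites with both factors without pioglitazone and p300 in both lists, 23.1% (21.7 to 24.6) were members when p300 with pioglitazone stood among the first 20% of rows, against 43.0% (41.7 to 44.3) otherwise. Within 10% steps of the c-Jun list the difference was -5.55 points (-7.68 to -3.43). By the p300 list without pioglitazone the shares were 25.01% (23.7 to 26.3) and 46.3% (44.8 to 47.7), and the difference within steps was -7.19 (-9.35 to -5.03). Across all p300 sites of both lists, the share of members varied less than that of sites of all 4 lists. By steps of the list with pioglitazone they were 15.4% (13.9 to 17.0) of the opening 10% and between 19.5% and 21.5% of each later step. Sites of all 4 lists were 66.8% of the opening step and 18.7% of the closing one. By steps of the p300 list without pioglitazone, members were 16.0% (14.7 to 17.3) of the opening step, 23.6% (21.9 to 25.4) of the third, where their share was highest, and 15.4% (12.6 to 18.5) of the ninth, where it was lowest.

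p300 peaks of the members moved both ways in the p300 order. When the 16216 sites of both p300 lists were ranked against each other in each treatment, the members had a median rank of 52.0% with pioglitazone and 49.1% without it. Their median movement was 0.697 points toward the end of the list (quartiles -8.94 and 12.2), against 0.777 (-5.83 and 10.1) at the sites of all 4 lists. The median was toward the start, -1.93 points (-15.3 and 10.2), at the 1237 sites with c-Jun only with pioglitazone. It was -2.36 (-13.6 and 7.92) at the 6001 sites that never had c-Jun. A move of more than 10 points toward the end was seen at 921 members, 28.6%, and one of more than 10 points toward the start at 735, 22.9%. At the sites of all 4 lists these shares were 25.1% and 17.8%. The ranks with and without pioglitazone had a Spearman's rho of 0.78 across the 3216 members and 0.855 across the 5762 sites of all 4 lists, which share their libraries and are no replicates.

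**Figure D3:**
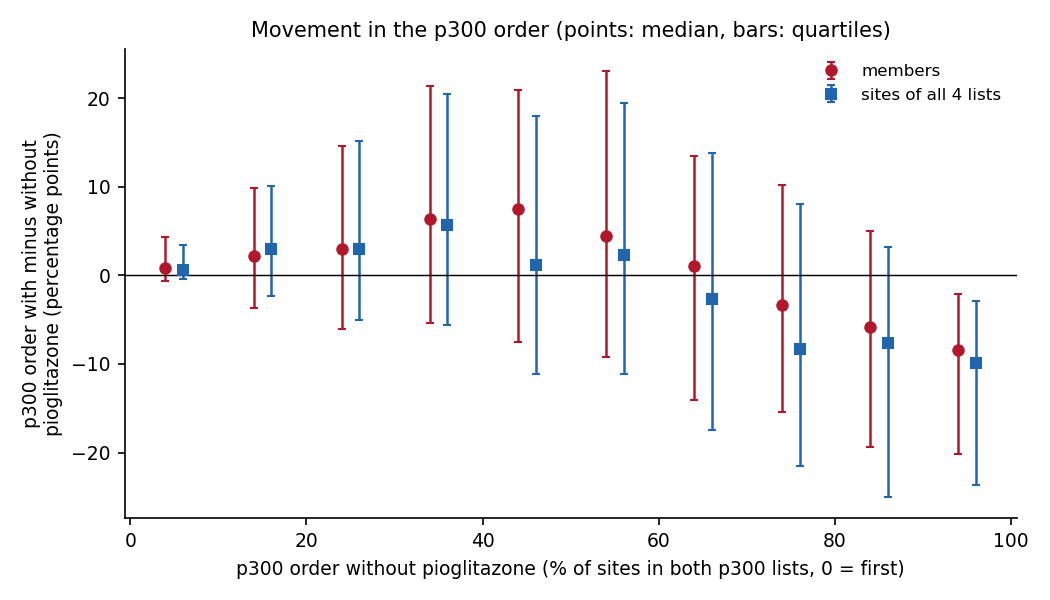
Movement in the p300 order, with minus without pioglitazone (y axis, percentage points; points are medians, bars quartiles), by the p300 order without pioglitazone (x axis, percent of sites in both p300 lists), for members and for sites of all 4 lists. The medians, members first, are 0.857 and 0.577 points in the first step and 2.20 and 2.94 in the second. They are 3.01 and 2.94 in the third, 6.35 and 5.72 in the fourth and 7.46 and 1.15 in the fifth. In the sixth they are 4.43 and 2.27, in the seventh 1.048 and -2.67 and in the eighth -3.37 and -8.31. The ninth has -5.77 and -7.61 and the last -8.44 and -9.88. The order on the x axis is the term subtracted on the y axis, so a fall toward the right is partly built in.

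The first 20 members by mean position over their 3 lists lay on 11 chromosomes, and their p300 peaks stood between positions 20 and 1269 with pioglitazone and between 3 and 973 without it. Position 1 in this order was chr15:101198977-101199236, whose p300 peak stood at position 20 of 21994 with pioglitazone and 3 of 31466 without it, and whose c-Jun peak stood at position 257 of 17044 without pioglitazone. With pioglitazone, the closest c-Jun peak was centred 1849 bp away, at a neighbouring site that had both factors in both treatments. At this locus c-Jun was therefore still listed next to the member.

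At chr10:79628592-79628908 the p300 peak was at position 128 with pioglitazone and 67 without it, and c-Jun at position 398. Here no c-Jun peak with pioglitazone was centred nearer than 61539 bp. The member at chr2:167400370-167400624 had p300 at positions 425 with and 196 without pioglitazone and c-Jun at position 343, and with pioglitazone the closest c-Jun peak was 15592 bp off. For chr6:113431055-113431331 the p300 positions were 1269 with and 317 without pioglitazone, the c-Jun position was 603 and the distance was 50403 bp. That site moved furthest down the shared p300 order among the 20, to 7.70% with pioglitazone against 1.95% without it.

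Others moved up. The p300 peak of chr1:166728646-166728976 was at position 184 with pioglitazone and 471 without it, with c-Jun at position 798, and that of chr7:119346420-119346674 at 201 with and 509 without, with c-Jun at 922. Of the 20, 9 stood earlier in the shared p300 order with pioglitazone and 11 later. The foremost members had no common direction of p300. By c-Jun order alone, 4 of the first 5 members are among these 20, and the other was chr9:34375878-34376131, with p300 at positions 1647 with and 532 without pioglitazone, c-Jun at position 347 and a distance of 29634 bp to c-Jun with pioglitazone.

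Several of the foremost members had a c-Jun peak with pioglitazone close by. For 7 of the 20 a c-Jun peak with pioglitazone had its centre within 1000 bp of the member's c-Jun peak, and at 6 of these 7 it was at a place with no c-Jun peak without pioglitazone. At chr9:34087484-34087770 (p300 at 571 with and 332 without pioglitazone, c-Jun at 346) that peak was centred 402 bp away, at position 1200 of the c-Jun list with pioglitazone. At chr18:5133997-5134411 (p300 at 149 and 111, c-Jun at 855) it was 413 bp away, at position 2893. The same held for chr11:109678727-109678993 at 503 bp, chr6:122520811-122521077 at 551 bp, chr17:45889679-45889945 at 619 bp and chr18:60765811-60766142 at 840 bp. A further 8 of the 20 had no c-Jun peak with pioglitazone within 10 kb. The foremost members thus include loci with no listed c-Jun over kilobases and loci where a listed peak lay just beside the member.

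Over all members a close c-Jun peak was the exception. Its centre was within 500 bp at 92 members, 2.86% (2.31 to 3.50), within 1000 bp at 183, 5.69% (4.91 to 6.55), and inside a 25 kb window centred on the peak at 1110, 34.5% (32.9 to 36.2), with a median distance of 22847 bp. Of the 183, the nearest peak was listed with pioglitazone only at 143 and in both treatments at 40. By c-Jun order, one lay within 1000 bp of 12.7% (7.14 to 20.4) of the members in the opening step and 3.52% (1.70 to 6.38) of those in the closing step. Sites with a c-Jun peak with pioglitazone within 1000 bp, measured from the site's centre instead, were then counted as keeping c-Jun. With that, 3031 members and 13 of the 20 remained.

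Sites listed for c-Jun with pioglitazone only were counted by distance from the members and from the sites of all 4 lists. One lay within 500 bp of 2.86% of members and of 0.174% (0.0833 to 0.319) of the sites of all 4 lists, and within c-Jun steps the difference was 2.85 points (2.21 to 3.49). Between 500 and 1000 bp the shares were 1.68% (1.26 to 2.19) and 1.51% (1.21 to 1.86), and the difference was 0.308 (-0.291 to 0.907). From 1 to 2.5 kb they were 2.02% and 1.48%, with a difference of 0.769 (0.121 to 1.42), and from 2.5 to 5 kb 2.61% and 1.98%, with a difference of 1.03 (0.345 to 1.72). Beyond 5 kb, out to the edge of the 25 kb window, they were 8.21% and 7.93%, with a difference of 0.483 (-0.767 to 1.73). Peaks of 1 list seldom lie so close together: in the c-Jun list with pioglitazone 16 neighbouring pairs had centres within 500 bp, and the smallest spacing was 351 bp. Since the rule gives every site of all 4 lists a c-Jun peak with pioglitazone and members none, the low share within 500 bp at the sites of all 4 lists follows largely from the rule and this spacing. Other sites that lost c-Jun also had a c-Jun peak with pioglitazone close by. Its centre was within 500 bp at 2.22% (1.61 to 2.995) and within 1000 bp at 5.03% (4.09 to 6.12) of the 1888 that lost p300 too, and at 3.95% (3.37 to 4.60) and 8.05% (7.23 to 8.93) of the 4048 with no p300 peak without pioglitazone, against which the members had 2.86% and 5.69%. The close c-Jun peaks are thus not particular to the members.

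**Figure D4:**
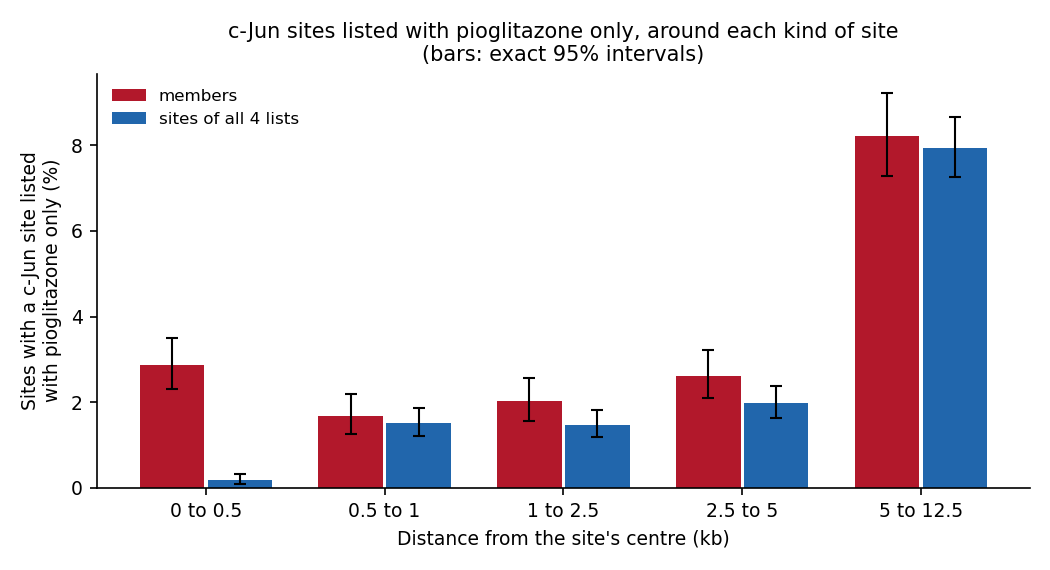
Share of sites (y axis, percent; bars are exact 95% intervals) with a c-Jun site listed with pioglitazone only, by distance from the site's centre (x axis, kb), for members and for sites of all 4 lists. The shares are 2.86% and 0.174% within 0.5 kb, where the rule and the spacing of peaks within a list keep the share at sites of all 4 lists low, and 8.21% and 7.93% beyond 5 kb.

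Another c-Jun site with pioglitazone lay inside the 25 kb window of 34.5% of members and of 32.2% (31.0 to 33.5) of the sites of all 4 lists, 5.05 points more (2.88 to 7.21) within c-Jun steps. With sites that had a c-Jun peak with pioglitazone within 1000 bp counted as keeping it, the difference was -1.89 (-4.07 to 0.282). This recount moves members with such a peak to the sites of all 4 lists, where the peak still counts as another site. It thus by itself lowers the difference. Another p300 site without pioglitazone lay inside that window for 59.0% of members and 57.8% of the sites of all 4 lists, a difference of 4.75 points (2.50 to 7.01) within c-Jun steps. A neighbouring site inside the windows of several members, or of several sites of all 4 lists, was counted for each of them. Of the 2866 neighbouring p300 sites so counted around members, 57.0% were listed with pioglitazone too, against 59.8% of 5047 around the sites of all 4 lists. Of p300 sites without pioglitazone in general, with no site counted repeatedly, 51.5% were.

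The fate of c-Jun was also compared between neighbouring sites. Neighbouring c-Jun sites were again counted for each window that held them. Of 1623 so counted around members, 47.7% were listed with pioglitazone too, against 50.6% of 2904 around the sites of all 4 lists. Of c-Jun sites without pioglitazone in general, with no site counted repeatedly, 53.7% were not listed with it. These shares were not matched by c-Jun order. For each member or site of all 4 lists, the nearest other such site inside the window was taken. Where that neighbour was a member, 36.1% (32.8 to 39.4) of 837 sites were members too, and where it was a site of all 4 lists, 35.1% (32.7 to 37.5) of 1517 were. The difference within c-Jun steps was 0.163 points (-3.59 to 3.92). Between neighbours no more than 2.5 kb apart the shares were 44.3% (36.4 to 52.4) of 158 and 34.8% (28.9 to 41.0) of 253, with a difference within steps of 3.52 (-5.86 to 12.9). Sites that were each other's nearest entered from both sides, which the intervals do not allow for, so they are too narrow. Even at this width they leave room for a difference of several points either way.

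Neighbouring sites were joined into a domain where the centre of each lay inside the 25 kb window of the other. Members occurred in 2963 of 25289 domains, and 2732 of these held 1 member, 211 held 2, 18 held 3 and 2 held 4. Of the members, 968 stood alone in their domain and 729 shared it with a site of all 4 lists. The lost share was compared among the 8978 sites with p300 in both lists and c-Jun without pioglitazone. Those with no other site in the domain lost c-Jun in 34.2% (32.5 to 36.01). Those in domains of 5 or more sites lost it in 35.8% (33.4 to 38.2). Lone sites stood lower in the c-Jun list, with a median position of 39.9% against 30.4%. The crude difference was -1.56 points (-4.58 to 1.43), and within c-Jun steps it was -6.18 (-9.00 to -3.36). A c-Jun site with pioglitazone close beside a member counts toward its domain, so that member is not lone. At a site of all 4 lists that peak is part of the site itself. The rule thus by itself lowers the lost share at lone sites. The difference within c-Jun steps was -3.68 (-6.48 to -0.887) when a c-Jun peak with pioglitazone within 1000 bp counted as kept.

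The domains with most members held several places where, by the rule, p300 stayed listed and c-Jun did not. The domain chr2:131532370-131587567, 55.2 kb long, held 7 p300 peaks with pioglitazone and 7 without it, and 3 c-Jun peaks with pioglitazone against 7 without it. Its 4 members lay at chr2:131532370-131532671, chr2:131547914-131548241, chr2:131565936-131566408 and chr2:131580761-131581129. The last had its p300 peak at positions 907 with and 1584 without pioglitazone, but c-Jun only at position 14043. All 4 of these c-Jun peaks were between positions 13502 and 14942 of 17044. The 2 sites of the domain that kept c-Jun had it at positions 2479 and 8088 with pioglitazone, and 8424 and 5196 without it. A c-Jun peak with pioglitazone only, at position 4735, lay at chr2:131547634-131547868, next to the second member.

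In the domain chr3:14831713-14848930 all 4 sites were members. It held 4 p300 peaks in either treatment, and 0 c-Jun peaks with pioglitazone against 4 without it. The p300 positions were 14573 to 17213 with pioglitazone and 7914 to 21555 without it, and the c-Jun positions were 10253 to 14570, so its c-Jun peaks and its p300 peaks with pioglitazone stood beyond the middle of their lists. The domain chr2:32535602-32549764 also consisted of members alone. Its 3 sites stood higher, with p300 at positions 4329, 4850 and 8106 with pioglitazone and 2852, 3220 and 16796 without it, and c-Jun at 2963, 4048 and 8404.

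On chromosome 1, the domain chr1:188391987-188411165 held 4 p300 peaks with pioglitazone and 5 without, and 1 c-Jun peak with pioglitazone against 4 without. Its members at chr1:188405568-188405833, chr1:188407835-188408106 and chr1:188410747-188411165 had c-Jun at positions 2884, 1596 and 2451, and p300 at 3089, 2241 and 4960 with pioglitazone and 4856, 1434 and 6027 without it. The c-Jun site that was kept there stood at position 2263 with pioglitazone and 2962 without it, lower without pioglitazone than the members did. This order of kept and lost sites is opposite to that over all members and sites of all 4 lists, and it rests on 1 kept site. The domain chr1:152307829-152345344 held 5 p300 peaks with pioglitazone and 7 without, and 2 c-Jun peaks with pioglitazone against 5 without, with 3 members. Of the 266 domains with at least 3 members or sites of all 4 lists, 9 held members alone, 65 held no member and 192 held both kinds.

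**Figure D5:**
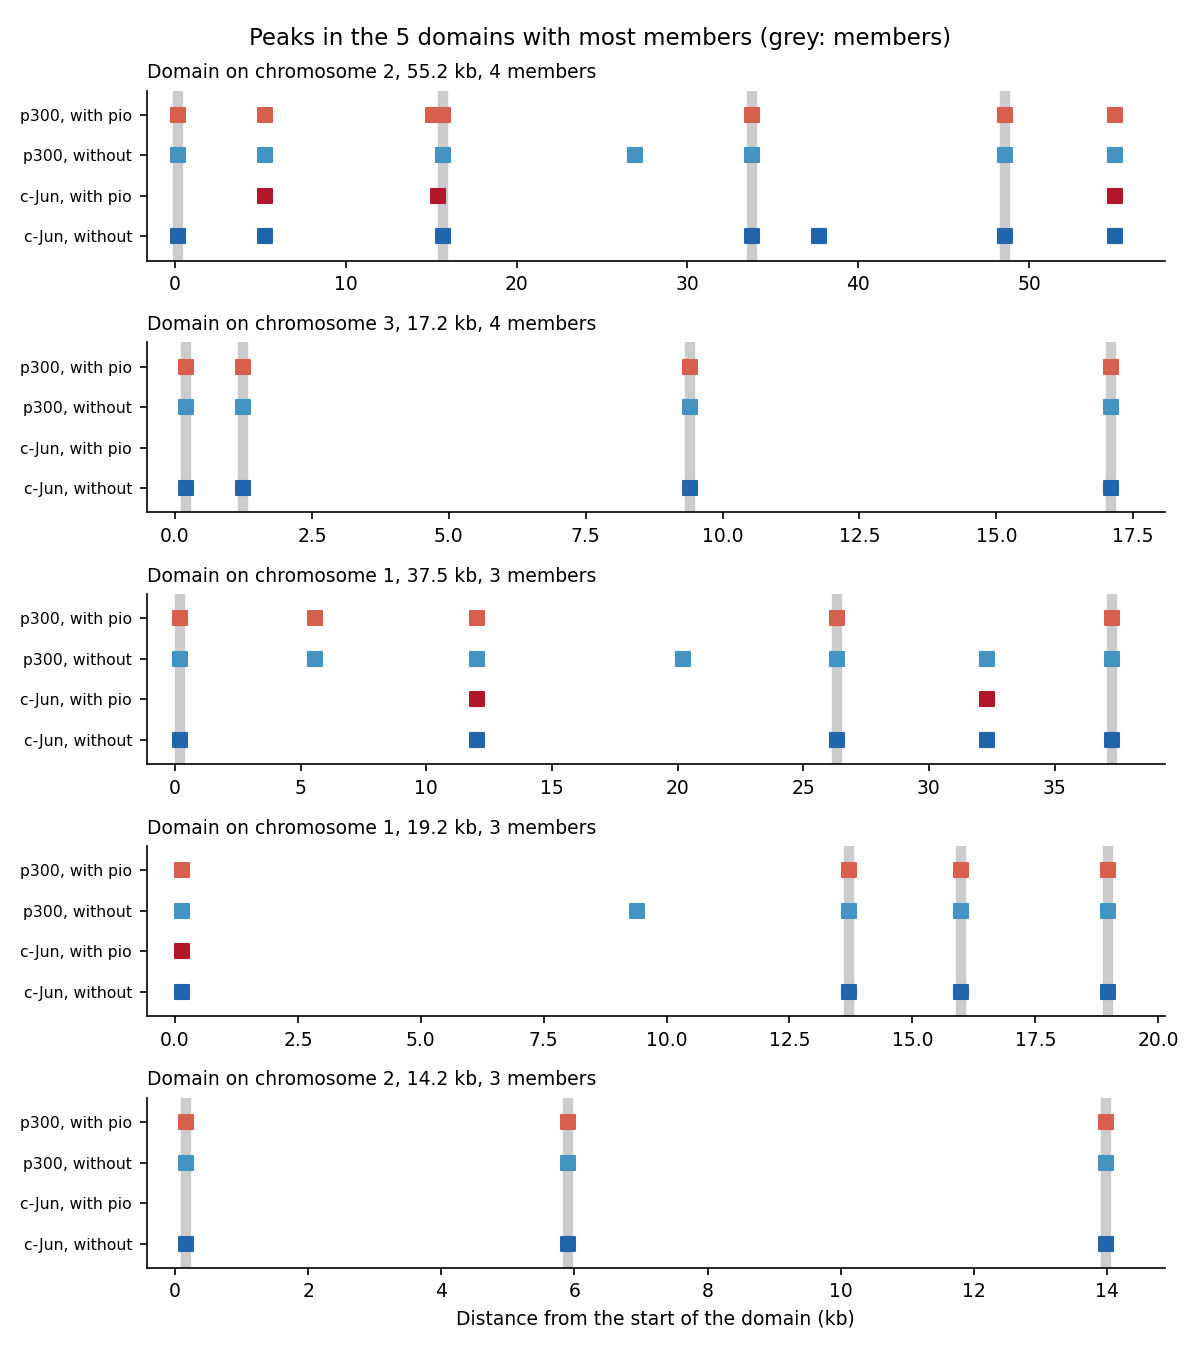
Peaks of the 4 lists (rows) along the 5 domains with most members (x axis, kb from the start of the domain); grey bands mark the members, and squares and bands are drawn wider than the peaks. In the domains on chromosome 3 (17.2 kb) and chromosome 2 (14.2 kb) the row of c-Jun with pioglitazone is empty, while p300 is present at every member.

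The peaks of a member lay nearly on top of each other. The median distance between the centres of its p300 peaks with and without pioglitazone was 39 bp, against 34 bp at the sites of all 4 lists. From the c-Jun peak the median was 50 bp to the p300 peak with pioglitazone and 44 bp to the one without it, against 43 and 36 bp at the sites of all 4 lists. The c-Jun peak overlapped both p300 peaks at 3134 members, only the p300 peak without pioglitazone at 51 and only the one with it at 31. The lost share by this distance was taken among sites with p300 in both lists and c-Jun without pioglitazone. Where the c-Jun and p300 centres without pioglitazone lay within 50 bp, it was 32.7% (31.5 to 34.0). Where they lay further apart, it was 40.6% (39.0 to 42.3). Within c-Jun steps this difference was -1.37 points (-3.35 to 0.600).

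The rule turns on an overlap of 1 bp, and some sites lay near that limit. A c-Jun peak with pioglitazone at chr13:90686595-90686829 (position 11442) began 2 bp beyond the end of the member c-Jun peak without it at chr13:90686344-90686592 (position 3860). The next gaps were 3, 5, 6 and 16 bp, on chromosomes 3, 11, 1 and 7. On the other side of the limit, the c-Jun peaks chr13:52754624-52754858 with pioglitazone and chr13:52754858-52755106 without it overlapped by 1 bp, at positions 599 and 1274. The next overlaps among sites of all 4 lists were 1, 2, 2 and 3 bp. At 86 sites of all 4 lists the 2 c-Jun peaks were joined through a p300 peak and did not overlap each other.

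By chromosome, members were found on all 19 autosomes and on X, with between 81 on X and 250 on chromosome 2. The lost share among sites with p300 in both lists and c-Jun without pioglitazone was lowest on chromosome 10, at 31.4% (27.7 to 35.2), and highest on X, at 48.5% (40.7 to 56.3) of 167 sites. On X it was 12.9 points (5.06 to 20.8) above that on the other chromosomes. The c-Jun peaks on X stood low in the list, at a median of 66.9%, and within c-Jun steps the difference was -0.426 (-7.74 to 6.89). It was 4.17 points (-5.62 to 14.9) with equal list lengths, and 20.9 (0.853 to 39.3) in the first 50% of the lists, both without steps. The c-Jun peaks on chromosome 10 stood early in the list, at a median of 20.1%. Its lost share differed from that of the others by -4.77 points (-8.56 to -0.797) without steps. Within steps the difference had the other sign, 3.83 (0.284 to 7.37). Within steps, chromosome 13 was the furthest below the others, by -7.23 points (-11.1 to -3.33), and chromosome 15 the furthest above, by 5.80 (1.30 to 10.3). With 20 chromosomes compared, some intervals that leave out 0 can arise from counting error.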

How the data were processed

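The mouse build mm9 and the tools HOMER, SAMtools (1.9) and Bowtie2 (2.3.4.3) are named, per the submitters' processing notes. The caller's settings and the use of the input are not stated there. The authors deposited 1 peak list for each ChIP library, with a score of 1 in every row, made by a step that is not stated, and peaks of a list share 1 width, between 227 and 249 bp. Only positions and row order were used. What the rows were sorted by is not stated.

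Peaks were joined into sites in Python (version 3.11.15, numpy 2.4.6, pandas 2.3.3, scipy 1.17.1), and the 44718 sites and 3216 members were the same with bedtools (version 2.31.1). Shares carry exact (Clopper-Pearson) 95% intervals. Differences carry intervals combined from these or, within 10% steps of the c-Jun list without pioglitazone, Mantel-Haenszel intervals. The functions were tested on simulated data. The members, lists and comparisons were chosen with earlier results of these data known. The sites named are the 20 members with the lowest mean percentile of row order over their 3 lists, the 5 first in the c-Jun list, those nearest the overlap limit, and the 5 domains with most members (ties in genome order). Planned motif, promoter and gene-list comparisons were not run, since the reference tables at hand are of GRCm38: on chromosome 7, 9 members lie beyond the last gene of that build, by up to 6.91 Mb.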

Additional observations from a re-analysis of the deposited data

How the results depend on the processing

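The alternatives were an overlap of 50% of both peaks (A), centres within 100 bp (B), no c-Jun peak with pioglitazone within 500 bp (C) or, added after the data were seen, 1000 bp (D), equal list lengths (E), the first 50% of all lists (F), c-Jun peaks taken singly, other window widths and, also added, steps of both lists or of 2%. Of 93 recomputed values, 63 stayed within the main interval or within 1.5 times the main count. For the members' c-Jun row order and p300 movement, the quartiles of the members were used in place of an interval. These give the spread of sites and not counting error, and all recomputed values of both stayed within them. The number of members was 1684 under F, of which 1114 were among the main 3216, and 2407 to 3192 otherwise. The lost share at sites keeping p300 was 36.9% under A and B, 34.8% under C, 33.8% under D and 31.7% under E. Its difference from sites losing p300 was -23.3 under E and -22.6 under F, and within steps -11.2 under F and -13.7 with steps of both lists. The share of members with another c-Jun site with pioglitazone in the 25 kb window was 38.7% under A, 40.2% under B, 32.5% under C, 30.5% under D, 36.7% under E, 25.7% under F, 16.1% in a 10 kb window and 52.6% in a 50 kb window. Members minus sites of all 4 lists, it was 8.90 under A, 10.5 under B, 1.48 under C and -1.89 under D. For c-Jun sites with pioglitazone only this difference, 4.76 points in the main setting, was 9.51 under A, 11.7 under B, 0.382 under C, -2.13 under D and 1.56 under F. Chromosome X differed by 4.17 under E and 20.9 under F, or 7.78 within steps under F. Under C and D, members with a close c-Jun peak with pioglitazone are by construction moved to the sites of all 4 lists. The close peak still counts as a neighbour there. For the other settings the cause was not tested. Distances and domains were not recomputed peak by peak. No paired analysis was possible because each group holds 1 library. Depth is unknown and limits every count of lost peaks.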
